A study of Mus musculus with 383 samples.

Results

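The endocannabinoid genes described here are 6 of the 29779 genes in a count table of single nuclei from the mouse dorsal motor nucleus of the vagus, the brainstem nucleus that sends preganglionic parasympathetic axons to the thoracic and abdominal organs. They are Cnr1, Dagla, Daglb, Mgll, Faah and Napepld, chosen by name for their known roles, and all 6 were found in the table. They were read over the 316 of 383 nuclei in which at least 1000 genes had a read. The nuclei came from male Chat-IRES-Cre mice, strain C57BL/6, whose Cre is driven from the gene for the acetylcholine-synthesising enzyme. Each mouse was injected when 10 weeks old with 100 nL of AAV9-DIO-H2b-mCherry, a Cre-dependent virus that labels nuclei red, and the brain was dissected after 16 days. There was no other treatment, no untreated or uninjected group, and dissected tissue was pooled. The tissue label and the injected site are the vagal nucleus, although the dissection protocol speaks of sections around the SCN. Labelled nuclei were sorted 1 per well of 96-well plates and sequenced by Smart-seq2, which reads along the transcript and carries no molecular identifiers.

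Endocannabinoids are lipids that neurons and other cells make on demand from membrane phospholipids. 2-arachidonoylglycerol is made from diacylglycerol by the diacylglycerol lipases that Dagla and Daglb encode, and is broken down chiefly by monoacylglycerol lipase, the product of Mgll. Anandamide and the related N-acylethanolamines can be released by the phospholipase that Napepld encodes, and are hydrolysed by fatty acid amide hydrolase, the product of Faah. Cnr1 encodes CB1, the Gi-coupled receptor that lowers transmitter release at many central synapses. In the vagal complex, cannabinoids acting at CB1 are known to alter synaptic input to vagal motor neurons and to reduce vomiting and gastric motility.

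The labels name no animal, so the series counts as 1 sample. Nuclei are not replicates, no test between nuclei was made, and spreads and intervals below describe nuclei of that sample. Retained nuclei had 1590 to 4699420 reads with a median of 1440075, and the 67 others had a median of 2328 reads. Clusters of nuclei were named from marker genes. A class of 22 nuclei was somatic motor-like and the other 294 were visceral motor-like. The median summed level of 5 visceral motor markers was 0.630 RPM (the reads of a gene divided by all reads of the nucleus and scaled to 1000000) in somatic and 334.0 RPM in visceral motor-like nuclei. For 6 somatic motor markers it was 190.9 and 18.1 RPM, and for 6 cholinergic markers 1281 and 1264 RPM. The names are those of clusters, and single nuclei could depart from them. In the visceral motor-like class the lowest summed level was 0 RPM for visceral motor and for cholinergic markers. In the somatic motor-like class it was 0 RPM for somatic motor markers. Reads of other cell types' markers were also present. Of 27 glial, vascular and ependymal markers, the median marker had at least 1 read in 13.6% of retained nuclei (range 1.58% to 76.9%) and at least 10 reads in 7.28% (range 0 to 61.1%).

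Each of the 6 genes was read in more than 50% of the retained nuclei, and the enzyme genes for both lipid families were present beside the receptor gene. So were 10449 of the 18798 genes with a read in at least 10% of the nuclei. The median share over those genes was 57.9%, and Napepld lay below it. Napepld was the least frequent and Faah the most frequent of the 6. Cnr1 (chromosome 4, 33924593 to 33948831, plus strand, GRCm38) was read in 239 nuclei (75.6%, exact Clopper-Pearson 95% interval 70.5 to 80.3). Its level was 0 in the lowest nuclei, 34.5 RPM in the median nucleus and 424.7 RPM in the highest, with a mean of 72.3 ± 90.6 RPM (SD over 316 nuclei). Cnr1 was thus uneven from nucleus to nucleus: 77 nuclei had no read, 200 had at least 10, and the top 32 nuclei held 40.1% of the summed RPM. This was not particular to Cnr1. Its coefficient of variation (SD over mean) was 1.25, below Dagla (1.27), Daglb (1.46) and Napepld (2.11) and above Mgll (1.12) and Faah (1.03). Its mean level exceeded that of 83.3% of the 18798 genes with a read in at least 10% of the nuclei.

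The diacylglycerol lipase genes were lower and were read in most nuclei. Dagla (chromosome 19, 10245265 to 10304877, minus strand), which encodes the form known for 2-arachidonoylglycerol synthesis at synapses, was read in 241 nuclei (76.3%, 71.2 to 80.8). It had a median of 13.6 RPM, a highest value of 179.8 RPM and a mean of 22.8 ± 29.0 RPM (SD, 316 nuclei). Daglb (chromosome 5, 143464584 to 143505942, plus strand), known as the main form in microglia and macrophages, was read in 218 nuclei (69.0%, 63.6 to 74.0). It had a median of 5.28 RPM, a highest value of 157.1 RPM and a mean of 16.9 ± 24.6 RPM. Its annotated exons share 2309 bases with those of Rac1 on the other strand, and Smart-seq2 does not mark strand, so reads there may belong to either gene. Rac1 itself averaged 87.2 RPM, and across 273 visceral motor-like nuclei its rank correlation with Daglb was 0.06, at rank 2758 of 14279 genes.

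The breakdown genes were the more widely read. Mgll (chromosome 6, 88724412 to 88828360, plus strand) was read in 249 nuclei (78.8%, 73.9 to 83.2), with a median of 41.2 RPM, a highest value of 340.7 RPM and a mean of 57.7 ± 64.4 RPM. Faah (chromosome 4, 115967145 to 116017926, minus strand) was read in 260 nuclei (82.3%, 77.6 to 86.3), with a median of 29.9 RPM, a highest value of 211.6 RPM and a mean of 39.4 ± 40.4 RPM. Faah was the most evenly spread of the 6, with a coefficient of variation of 1.03 over nuclei. The N-acylethanolamine synthesis gene Napepld (chromosome 5, 21662901 to 21701396, minus strand) was read in 165 nuclei (52.2%, 46.6 to 57.8), with a median of 0.442 RPM, a highest value of 101.8 RPM and a mean of 7.86 ± 16.6 RPM. Its coefficient of variation was 2.11, and 76 of its 165 nuclei had fewer than 5 reads. With at least 10 reads required, the shares were 63.3% for Cnr1, 59.5% for Dagla, 47.8% for Daglb, 68.4% for Mgll, 69.9% for Faah and 23.7% for Napepld. In the 67 nuclei that were not retained, Mgll had 2 reads, Cnr1, Daglb and Napepld had 1 read each, and Dagla and Faah had 0.

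Per kilobase of annotated exon, the order of mean levels was Mgll (11.4 ± 12.7 RPM per kb, SD over nuclei), Cnr1 (11.2 ± 14.1), Faah (5.03 ± 5.16), Dagla (3.97 ± 5.05), Napepld (1.99 ± 4.20) and Daglb (1.76 ± 2.57). Mgll and Cnr1 lay far within each other's spread, as did Faah and Dagla, and Napepld and Daglb. Whether intronic reads were counted is not given in the sources used here. Per kilobase of the whole gene the order was Cnr1 (2.98 RPM per kb), Faah (0.775), Mgll (0.555), Daglb (0.408), Dagla (0.383) and Napepld (0.204), so Mgll, which has the longest gene body of the 6, lost its lead on that scale.

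**Figure D1:**
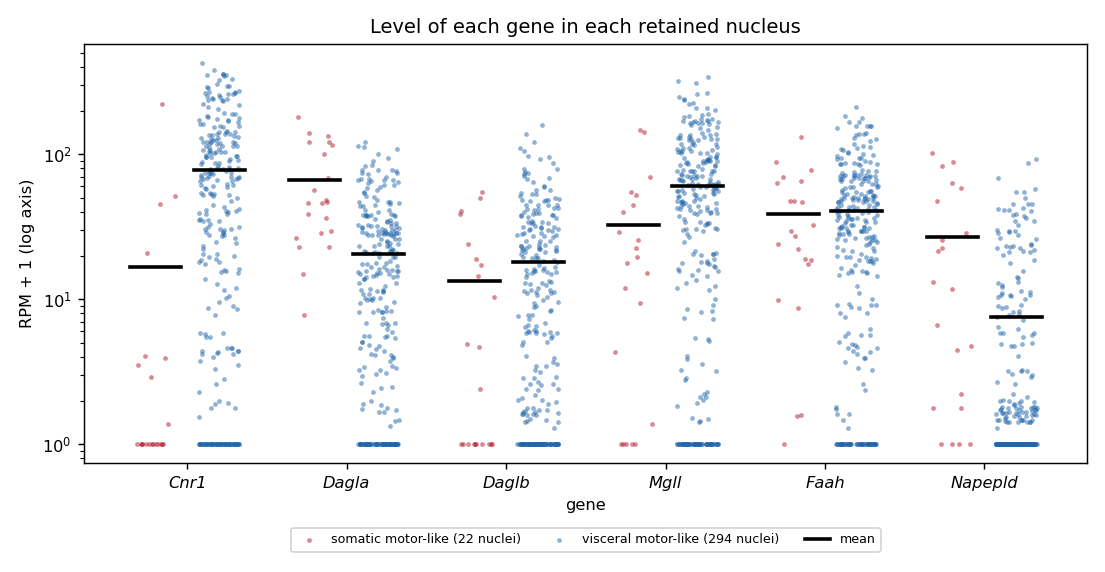
Level of each gene in every retained nucleus, in RPM + 1 on a log axis, with 22 somatic motor-like nuclei left of 294 visceral motor-like nuclei for each gene; black bars are means over nuclei. Dagla and Napepld average higher in the somatic motor-like nuclei (65.3 and 25.9 RPM, against 19.6 and 6.51 RPM), Cnr1 lower (15.7 against 76.5 RPM), and the clouds of both classes overlap for every gene.

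Most nuclei carried several of the genes at once. All 6 were read in 57 of 316 nuclei (18.0%), 5 in 107 (33.9%) and 4 in 80 (25.3%), while 4 nuclei had a read of none. To compare nuclei at equal depth, each was thinned at random to 500000 reads, which left 273 visceral motor-like nuclei. Of these, 125 (45.8%, 39.8 to 51.9) had both Dagla and Daglb, 73 (26.7%) had Dagla alone, 49 (17.9%) had Daglb alone and 26 (9.52%) had neither. A receptor, a synthesis and a breakdown gene of the 2-arachidonoylglycerol route (Cnr1, Mgll and at least 1 of the lipase genes) were read together in 148 nuclei (54.2%, 48.1 to 60.2). For anandamide, 83 nuclei (30.4%) had both Napepld and Faah, 138 (50.5%) had Faah without Napepld and 16 (5.86%) had Napepld without Faah. Such joint counts depend on how frequent each gene is by itself. Daglb was read in 63.1% of nuclei with Dagla and 65.3% without it. Mgll was read in 76.5% with Cnr1 and 73.3% without it, and Faah in 83.8% with Napepld and 79.3% without it.

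Within the visceral motor-like class, the levels of the 6 genes were at most weakly correlated with each other. Over the 15 pairs, Spearman's rho across 273 nuclei ran from -0.11 for Faah with Napepld to 0.14 for Cnr1 with Mgll. These are descriptions over nuclei of equal read number, in sparse counts, and values of this size are no finding. Levels followed the number of genes read in a nucleus weakly, with rho over 316 nuclei from -0.02 for Faah to 0.26 for Napepld.

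The somatic and visceral motor-like classes differed in the balance of these genes. On average, somatic motor-like nuclei had more of the synthesis genes Dagla and Napepld than visceral motor-like nuclei, and less of the receptor gene Cnr1. Mean levels of Daglb, Mgll and Faah were within a 2-fold difference, although the medians of Daglb and Mgll were further apart. The classes were built without the 6 genes and without 40 further genes of the pathway. In the somatic motor-like class 2 of the 6 genes averaged at least 2-fold higher, where 7.54% of 18798 genes did, and 1 of 6 at least 2-fold lower, where 25.5% did. By the share of nuclei with a read, with a limit of 40 percentage points and intervals apart, 1 of the 6 was higher (background 0.575%) and 1 lower (background 0.766%). The median log2 ratio was -0.28 over the 6 genes and -0.26 over all genes tested.

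Dagla was the gene read in every somatic motor-like nucleus. Its level ran from 6.77 RPM through a median of 45.6 to 179.8 RPM in the 22 somatic motor-like nuclei, and from 0 through 10.7 to 120.4 RPM in the 294 visceral motor-like nuclei. The ranges overlapped, but 21 of 22 somatic motor-like nuclei lay above the visceral median and each of the 22 had at least 10 reads, as did 166 of 294 visceral motor-like nuclei (56.5%). The mean was 65.3 ± 49.0 RPM in somatic and 19.6 ± 24.3 RPM in visceral motor-like nuclei, a 3.32-fold difference (log2 ratio 1.73). At 500000 reads Dagla was read in 22 of 22 (100%, 84.6 to 100) and in 198 of 273 nuclei (72.5%, 66.8 to 77.7). The intervals were apart, yet the 27.5 points did not reach the limit. With at least 5 reads required the shares were 95.5% and 54.6%, which passed it.

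Napepld went the same way. It ran from 0 through a median of 11.4 to 101.8 RPM in somatic and from 0 through 0.153 to 91.7 RPM in visceral motor-like nuclei. At least 10 reads were found in 13 of 22 somatic (59.1%) and 62 of 294 visceral motor-like nuclei (21.1%), although both classes held nuclei without a read. The mean was 25.9 ± 32.2 RPM and 6.51 ± 14.0 RPM, a 3.98-fold difference (log2 ratio 1.99). In the thinned nuclei it was read in 18 of 22 (81.8%, 59.7 to 94.8) and in 36.3% (30.6 to 42.3). This difference of 45.6 points depended on the random draw: another draw gave 27.0 points, and the share expected over all draws was 72.7% and 37.4%, a difference of 35.3 points under the limit.

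Cnr1 was the gene that was lower. It ran from 0 through a median of 0 to 220.3 RPM in somatic and from 0 through 40.6 to 424.7 RPM in visceral motor-like nuclei. No read was found in 13 of 22 somatic and 64 of 294 visceral motor-like nuclei, and at least 10 reads in 4 (18.2%) and 196 (66.7%). The mean was 15.7 ± 47.8 RPM in somatic and 76.5 ± 91.7 RPM in visceral motor-like nuclei, 4.86-fold lower (log2 ratio -2.28). The somatic mean rested largely on 1 nucleus at 220.3 RPM, the next being 50.4, 44.4 and 20.0 RPM. Without the highest nucleus of each class the log2 ratio was -3.65. In thinned nuclei the shares were 36.4% (17.2 to 59.3) and 78.0% (72.6 to 82.8), a difference of -41.7 points. With another random draw it was -36.0 points and without thinning -37.3, both short of the limit. It passed as the share expected over all draws (33.4% and 77.3%, -44.0 points), at 1000000 reads (-46.3) and with at least 5 reads required (-48.1).

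The other 3 genes stayed within 2-fold between the classes by mean level. Medians in somatic and visceral motor-like nuclei were 17.7 and 43.7 RPM for Mgll, 2.55 and 5.61 RPM for Daglb, and 27.3 and 30.1 RPM for Faah. Above the visceral median lay 5 of 22 somatic motor-like nuclei for Mgll, 9 for Daglb and 10 for Faah. Mgll averaged 31.3 ± 41.4 RPM in somatic and 59.6 ± 65.5 RPM in visceral motor-like nuclei (log2 ratio -0.93), with shares of 72.7% and 75.8%. Leaving out the highest nucleus of each class moved its log2 ratio to -1.18, past 2-fold. Daglb averaged 12.3 ± 17.5 and 17.2 ± 25.0 RPM (log2 ratio -0.49), with shares of 50.0% and 63.7%. Rac1, whose exons overlap those of Daglb, averaged 59.1 RPM in somatic and 89.3 RPM in visceral motor-like nuclei. Faah averaged 37.7 ± 33.1 and 39.5 ± 40.9 RPM (log2 ratio -0.07), with shares of 90.9% (70.8 to 98.9) and 81.0% (75.8 to 85.4).

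**Figure D2:**
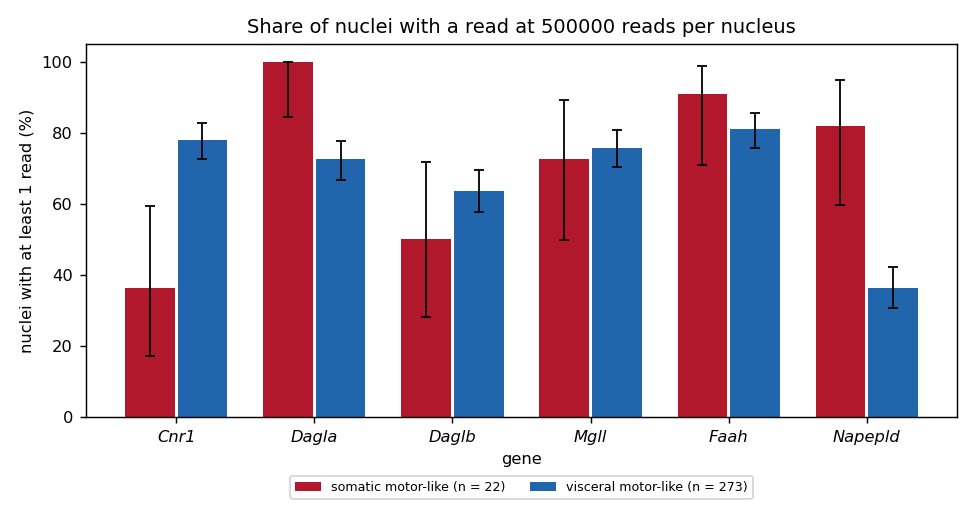
Share of nuclei with at least 1 read of each gene after thinning to 500000 reads, for 22 somatic motor-like nuclei left of 273 visceral motor-like nuclei; bars start at 0 and error bars are exact 95% intervals over nuclei. The intervals are apart for Cnr1, Dagla and Napepld and overlap for Daglb, Mgll and Faah. The share of all genes with intervals apart between the classes, without the limit in points, is not given. How unusual such intervals are among all genes therefore cannot be told from these bars.

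Depth and reads of other cell types' markers differed in part between the classes. Median depth was 1646060 reads in somatic and 1431009 in visceral motor-like nuclei, and 9885 and 10220 genes were read at 500000 reads. The median summed level was 23.0 and 43.4 RPM for 5 oligodendrocyte markers, 3.10 and 4.20 RPM for 5 astrocyte markers and 0.786 and 0.511 RPM for 5 microglial markers, with highest values of 186.2 and 2099 RPM, 232.2 and 25056 RPM, and 61.7 and 488.0 RPM. Single markers differed more, with Gja1 and Gfap of astrocytes at means of 5.41 and 0.228 RPM in somatic and 125.6 and 37.2 RPM in visceral motor-like nuclei, and Mog of oligodendrocytes at 0.109 and 8.45 RPM. The other astrocyte markers did not all go that way. Aldh1l1 (14.8 and 5.68 RPM) and Slc1a3 (9.31 and 6.00 RPM) averaged higher in somatic motor-like nuclei, and Aqp4 (2.85 and 4.81 RPM) lower. No marker of these lists was at 0 over the retained nuclei, and their part in the differences was not tested. Cluster 1 of the first clustering had the highest mean share of the astrocyte, oligodendrocyte and microglial markers. Leaving its 63 nuclei out, the log2 ratios were -2.40 for Cnr1, 1.70 for Dagla and 2.10 for Napepld.

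The labels name no batch, but the nuclei carry numbers, and their 4 successive blocks of 96 numbers held 6, 7, 3 and 6 somatic motor-like nuclei. Mean Dagla was 70.5, 58.6, 21.1 and 89.9 RPM in the somatic motor-like nuclei of these blocks, against 22.4, 18.9, 21.4 and 16.0 RPM in the visceral ones. The means of the third block, which had 3 somatic motor-like nuclei, were nearly equal. Mean Napepld was 15.6, 22.1, 28.6 and 39.2 RPM in somatic, against 7.02, 5.38, 7.81 and 5.88 RPM in visceral motor-like nuclei, higher in each block. Mean Cnr1 was 12.2, 0, 73.4 and 8.72 RPM in somatic, against 72.5, 92.7, 83.1 and 58.7 RPM in visceral motor-like nuclei. In nuclei thinned to 500000 reads, Cnr1 was read in the first block in 5 of 6 somatic (83.3%) and 80.3% of visceral motor-like nuclei, and in the second in 0 of 7 and 76.8%, so the size of the difference in share depended on the block. Before thinning, all 6 somatic motor-like nuclei of the first block had a read of Cnr1. Over all retained nuclei, also before thinning, the Cnr1 share was 81.3%, 71.3%, 86.5% and 64.6% in the 4 blocks.

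Around the 6 genes, the list of the pathway held 40 further genes, of which 27 were read in more than 50% of retained nuclei and 5 in under 10%. The median share of the 40 genes was 87.8%, beside 57.9% over the genes tested. Genes whose products act with CB1 were read in most nuclei. Cnrip1 and Sgip1, whose products bind CB1, were read in 90.8% and 98.7% of nuclei, and all 9 listed effector genes, Gi and Go alpha subunits, presynaptic calcium channels and GIRK channels, in 72.5% to 99.4%. Other lipid-sensing receptors were far less frequent than Cnr1. Cnr2, the CB2 receptor gene, was read in 21.5% of nuclei, Gpr55 in 16.1%, Gpr18 in 8.86%, Gpr119 in 6.33% and Trpv1, a cation channel that anandamide can open, in 34.2%. Cnr2, Gpr18, Gpr55 and Gpr119 averaged at most 1.98 RPM.

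Alternative enzymes were also read. Abhd12 and Abhd6, further hydrolases of 2-arachidonoylglycerol, were read in 95.3% and 89.9% of nuclei, and Ptgs2 in 2.53%. Pla2g4e, which encodes an N-acyltransferase that makes the precursor lipid of anandamide, was read in 93.7%, at 93.8 RPM on average. Gdpd1, Gde1 and Abhd4, of the routes to N-acylethanolamines that bypass the Napepld enzyme, were read in 95.6%, 91.1% and 73.4%. Inpp5d, Ptpn22 and Gdpd3 of the same list were less frequent, at 50.3%, 43.4% and 15.8%. Naaa, a lysosomal hydrolase of N-acylethanolamines, was read in 47.8%, fewer than Faah.

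Of the 40 genes, 35 had a read in at least 10% of nuclei and were compared between the classes. At least 2-fold higher means in somatic motor-like nuclei were found for 5 of 35 and at least 2-fold lower means for 5 of 35, against backgrounds of 7.54% and 25.5%. By share, 0 of 35 passed the limit in either direction. The higher genes described here, 4 of the 5, lay upstream of diacylglycerol or in 2-arachidonoylglycerol breakdown, but other listed genes of these roles did not follow. Upstream of diacylglycerol, log2 ratios were 0.65 for Plcb1, -0.36 for Plcb3, -0.10 for Gnaq, -0.21 for Gna11 and -2.07 for Chrm1. In breakdown, Abhd12 had 0.44. Grm5, a Gq-coupled glutamate receptor, averaged 563.9 ± 551.0 RPM in somatic and 84.7 ± 169.6 RPM in visceral motor-like nuclei (SD over nuclei), with medians of 391.3 and 40.4 RPM. Plcb4, a phospholipase C, averaged 482.9 ± 452.7 and 180.4 ± 117.7 RPM, with medians of 360.7 and 161.2 RPM, and Abhd6 95.6 ± 77.9 and 41.6 ± 48.5 RPM, with medians of 84.7 and 26.4 RPM. Chrm3, a Gq-coupled muscarinic receptor, averaged 399.5 ± 666.4 and 85.9 ± 162.4 RPM. Its medians of 35.3 and 22.4 RPM were closer, and its highest somatic motor-like nucleus had 2433 RPM. The 5 lower genes were Trpv1 (0.346 RPM in somatic and 11.8 RPM in visceral motor-like nuclei), Inpp5d (2.70 and 7.17 RPM), Gdpd3 (0.157 and 2.13 RPM), Cnr2 (0.146 and 1.12 RPM) and Chrm1 (0.336 and 1.41 RPM), each at most 11.8 RPM on average in either class. The median log2 ratio of the 35 genes was -0.10.

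**Figure D3:**
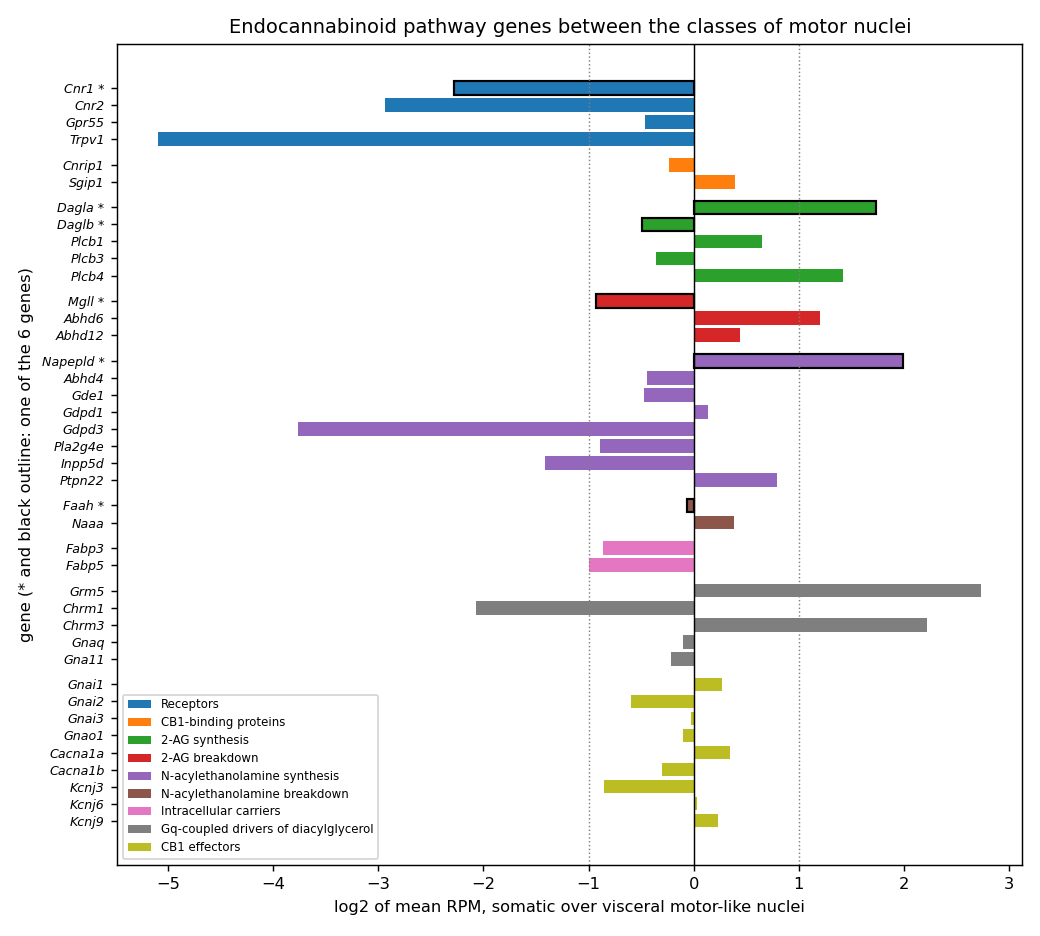
Log2 ratio of mean RPM, somatic over visceral motor-like nuclei, for the 6 genes (black outline and asterisk) and most of the further pathway genes compared between the classes. Genes are grouped by role, and dotted lines mark a 2-fold difference. Dagla (1.73) and Napepld (1.99) lie right of the right dotted line with Plcb4, Abhd6, Grm5 and Chrm3. Cnr1 (-2.28) lies left of the left dotted line with Trpv1, Gdpd3, Cnr2, Chrm1 and Inpp5d.

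Within the visceral motor-like class, a second clustering, built without the 46 listed genes, gave 11 clusters of 12 to 47 nuclei. Of the 6 genes, 1 (Cnr1) differed by at least 40 points in share between its highest and lowest cluster with intervals apart, where 28.0% of all genes did and 26.3% of those that did not build the clusters. Cnr1 was read in 22 of 23 nuclei of cluster 5 (95.7%, 78.1 to 99.9) and in 11 of 20 of cluster 7 (55.0%, 31.5 to 76.9). This call did not hold at 1000000 reads, at resolution 0.5, with 20 neighbours or with another seed of the clustering, with ranges of 31.3 to 42.9 points. It held without thinning (42.9), with another draw of the thinning (45.7) and with at least 5 reads required (62.3). By level, mean Cnr1 was 154.2 ± 111.8 RPM in cluster 5, then 107.0 ± 111.9 in cluster 1, 102.5 ± 75.8 in cluster 6, 101.2 ± 105.3 in cluster 9, 74.6 ± 79.7 in cluster 3 and 63.0 ± 97.5 in cluster 2. It was 56.1 ± 74.0 in cluster 10, 47.5 ± 65.8 in cluster 8, 44.3 ± 51.3 in cluster 4, 26.8 ± 40.8 in cluster 7 and 23.9 ± 34.6 RPM in cluster 11. Neighbours in this order differed by less than their SD over nuclei.

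Cluster 6 stood first for Dagla, Mgll and Napepld by mean level. The share of all genes that stood first in cluster 6 is not given. None of these genes passed the share limit among clusters with at least 1 read required. Dagla averaged 36.1 ± 30.0 RPM in the 22 nuclei of cluster 6. The other clusters ran from 9.47 RPM in cluster 5 to 23.8 RPM in cluster 1. Mgll averaged 127.6 ± 83.4 RPM there and from 23.6 RPM in cluster 11 to 86.1 RPM in cluster 5 elsewhere. Napepld averaged 16.9 ± 25.5 RPM there and from 2.12 RPM in cluster 10 to 12.5 RPM in cluster 11 elsewhere, and its shares over all clusters ran from 11.1% (1.38 to 34.7) in cluster 10 to 58.3% (27.7 to 84.8) in cluster 11. The summed somatic motor markers had a median of 442.2 RPM in cluster 6, beside 218.1 RPM of visceral motor markers, and their part in its levels was not tested. Faah was highest in cluster 9 (61.8 ± 48.1 RPM) and lowest in cluster 4 (22.4 ± 28.3 RPM), and was read in 20 of 20 nuclei of cluster 8. Daglb varied the least by share, from 57.1% in cluster 3 to 84.2% in cluster 6. Cluster 4 also had the highest mean share over the 5 astrocyte markers, 47.6%, where the other clusters had 9.71% to 25.8%, and the most genes read at 500000 reads, a median of 11777.

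**Figure D4:**
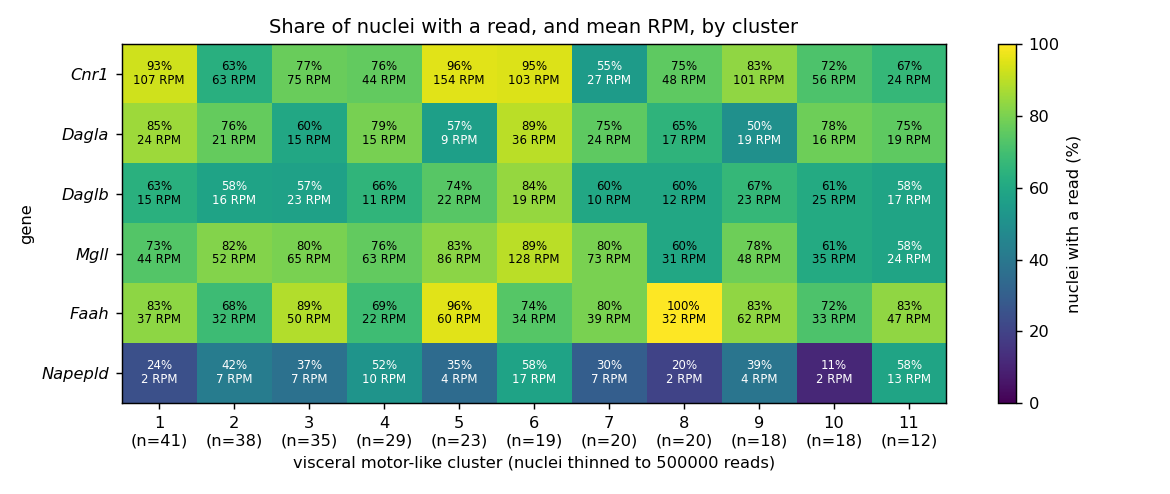
Each cell gives, for 1 gene and 1 of 11 visceral motor-like clusters, the share of nuclei with a read after thinning to 500000 reads (colour and upper figure, n under each column) and the mean RPM over all nuclei of the cluster before thinning (lower figure). Cnr1 runs from 95.7% in cluster 5 to 55.0% in cluster 7, and cluster 6 has the highest mean Mgll (127.6 RPM).

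Cluster 6 held 14 of the 22 thinned visceral motor-like nuclei with a read of Cck, the cholecystokinin gene. Nuclei with Cck had a mean of 107.3 ± 84.3 RPM of Mgll and 17.0 ± 27.7 RPM of Napepld, against 56.9 ± 63.3 and 5.68 ± 11.9 RPM in the 251 nuclei without it. For Cnr1 the means were 90.0 and 74.2 RPM, and the share intervals overlapped for all 6 genes. Cnr1 averaged 42.7 RPM in the 38 nuclei with a read of Pdyn, the dynorphin precursor gene, and 80.8 RPM in the 235 without. It averaged 122.3 RPM in the 28 nuclei with a read of Grp, the gastrin-releasing peptide gene, and 70.2 RPM in the 245 without, and its share intervals overlapped for both genes. Of the 38 nuclei with Pdyn, 13 were in cluster 10, 8 in cluster 1, 7 in cluster 2 and 6 in cluster 7, and of the 28 with Grp, 11 were in cluster 2 and 6 in cluster 1.

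Genes whose levels followed each of the 6 most closely were named by Spearman's rho over the 273 thinned visceral motor-like nuclei, among 14280 genes. For Cnr1 they were Pja2 (rho 0.40), Actb (0.37), Pcdh19 (0.36), Arxes2 (0.36) and Anxa5 (0.35). For Mgll they included Pde4d (0.34), Luzp2 (0.31), Cdh9 (0.30) and Me3 (0.29), and for Napepld Ephb1 (0.32), Itga6 (0.29), 9530026P05Rik (0.29), Pdlim5 (0.27) and Lrp2 (0.27). Dagla was followed by Stat5b (0.29), Tpd52l1 (0.27), Dchs2 (0.26), Gm31698 (0.25) and Fbxl2 (0.25). Faah was followed by Atp6v0a1 (0.27), Vstm2b (0.26), Tmem25 (0.25), Fcho1 (0.24) and Cntn6 (0.23), and Daglb by Stk11ip (0.25), Nras (0.24), Eftud2 (0.22), Rnf112 (0.22) and Marc2 (0.22). The points share depth and library chemistry. The lists depended on the measure and the depth. At 1000000 reads those of Cnr1, Daglb and Napepld kept 2 of 5 genes and those of Mgll and Faah 3, and by Pearson correlation that of Faah kept 1 and those of Cnr1, Daglb, Mgll and Napepld 3.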

How the data were processed

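The deposited table holds read counts per gene for 383 nuclei. They are whole numbers, as deposited, and not normalised by the authors. Per the submitters' processing notes the build was GRCm38, and bcl2fastq, STAR, Picard, edgeR and Seurat version 3 were named without roles; annotation, counting mode and strand are not given in the sources used here. The 6 genes, gene lists, markers and limits were chosen with earlier results of these data known.

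RPM were computed from all reads of a nucleus. Nuclei were clustered with scanpy 1.11.5 (10000 reads per nucleus, log after adding 1, 2000 variable genes, 15 components, 10 neighbours, Leiden resolution 1), without listed, mitochondrial or ribosomal protein genes. A cluster was called motor-like where cholinergic markers exceeded the markers of each other cell type, and somatic or visceral by the larger mean marker share. No doublet caller was run, as 1 nucleus was sorted per well. Intervals are 95% Clopper-Pearson and cover counting error over nuclei only. Genes most like each gene were the 5 with the highest rho among genes read in at least 20% of nuclei. Values of 2 genes that these rules name are not reported here. Clusters of at least 8 nuclei were compared. Gene models are GENCODE M21. The share limit between classes was checked on simulated data for 18798 genes, in which 200 were raised by 60 points in 22 nuclei. Of these, 99.0% were called, and of the others 0. The raise lay well above the limit, and lowered genes were not simulated. The check therefore cannot show how reliable calls near the limit are, such as those of Cnr1 and Napepld. Alternatives are given in the closing section, including scaling by scran 1.30.0 size factors.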

Additional observations from a re-analysis of the deposited data

How the results depend on the processing

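The log2 ratios of mean RPM between the classes kept their direction and their side of 2-fold with scran size factors, summed reads and without the first cluster for all 6 genes; without the highest nucleus of each class Mgll passed 2-fold (-1.18) and the other 5 did not change side. These ratio alternatives, the second draw, the expected shares and the omissions of clusters were chosen after seeing the data. The share limit was less stable. The count of genes past it between classes was 2, but 0 without thinning, 1 at 1000000 reads and 0 with another draw. Cnr1 fell short without thinning (-37.3 points) and with another draw (-36.0). Napepld fell short without thinning (31.8), at 1000000 reads (37.2), with at least 5 reads (33.7), with another draw (27.0) and as an expected share (35.3). Dagla passed with at least 5 reads (40.9). Class membership was the same for 316 nuclei at resolution 0.5 and for 315 with 20 neighbours. Among clusters the count was 1, but 3 with at least 5 reads, where Dagla (58.1) and Napepld (47.1) also passed. The background of 28.0% of all genes is for at least 1 read, and none is given for at least 5. The count was 0 at 1000000 reads, resolution 0.5, 20 neighbours and another seed. There Cnr1 ranged over 36.8, 31.3, 35.9 and 42.9 points, the last with overlapping intervals. The cause was not tested. Shares with at least 1 read mix few and many reads, so small counts, Napepld above all, limit what they show. No paired analysis was possible because all nuclei form 1 group.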

Other observations

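Among the 15 pairs of the 6 genes in the 273 thinned visceral motor-like nuclei, 1 pair had shares with intervals apart, and it is named after its values were seen. Napepld was read in 87 of 213 nuclei with Cnr1 (40.8%, 34.2 to 47.8) and in 12 of 60 without it (20.0%, 10.8 to 32.3). Nuclei with Cnr1 also had more genes read at the same depth, a median of 10412 against 9698.5, and the levels of the pair had a rho of 0.04. The part of gene number in this difference was not tested. The share of all genes with intervals apart between nuclei with and without Cnr1 is not given, so the count of 1 pair is no result by itself.

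Faah, also named after its values were seen, was read in 16 of 28 nuclei with Grp (57.1%, 37.2 to 75.5) and in 205 of 245 without it (83.7%, 78.4 to 88.1). Its mean level was 32.5 ± 38.3 and 41.9 ± 41.4 RPM, which differed by less than the spread over nuclei. This was the 1 of 18 comparisons of the 6 genes with Cck, Pdyn and Grp whose share intervals were apart. The share of all genes with intervals apart in these splits is not given, so the count is no result about Faah. Of the 28 nuclei with Grp, 11 were in cluster 2, which had the lowest Faah share of the 11 clusters (68.4%).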
